A study of Mus musculus with 4 samples.

Results

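*CCL-2*, *CCL-3*, *CCL-4* and *CCL-5* are the 4 CC chemokines for monocytes and lymphocytes in an RT-qPCR panel of 98 genes. These genes were chosen by name, with earlier results of these data known. They were measured in whole lungs of female C57BL/6J mice aged 6 to 8 weeks. HBSS + vehicle mice received DPBS in Matrigel into the lung, without cancer cells, and the salt solution HBSS intranasally. S100A8 + vehicle mice received the same injection and 10 µg of recombinant mouse S100A8 intranasally. HBSS + LLC and S100A8 + LLC mice received Lewis lung carcinoma (LLC) cells in Matrigel, a syngeneic mouse lung cancer line, followed by HBSS or by 10 µg of S100A8. In all 4 groups the intranasal treatment was given on Days 3, 6 and 9, and lungs were taken on Day 10. The authors averaged 4 to 5 mice into 1 value per gene and group before deposit. The spread between mice cannot be had from these averages, so no SD or test is given, and none of the differences described here could be set against it.

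Chemokines are small secreted proteins that attract leukocytes along a gradient through G protein-coupled receptors. *CCL-2*, also called monocyte chemoattractant protein, acts through CCR2 and draws inflammatory monocytes out of the bone marrow and into tissue. *CCL-3* and *CCL-4*, the macrophage inflammatory proteins, and *CCL-5*, also called RANTES, attract monocytes, T cells and NK cells. All 4 genes lie on chromosome 11 by their RefSeq entries (mouse assembly GRCm38.p6), which were matched by name. *Ccl3* and *Ccl4* are direct neighbours among protein-coding genes, and *Ccl5* is separated from *Ccl3* by 2 such genes. *Ccl2* lies beside *Ccl7*, with 30 protein-coding genes between it and *Ccl5*.

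The measured quantity is the threshold cycle (Ct), the PCR cycle at which a transcript's signal crosses detection, so 1 cycle less stands for about 2 times as much template. All 4 chemokines were well detected. Their mean Ct ran from 19.45 to 27.75 over the 4 groups, below the 30 cycles that mark low expression and far below the cut off of 38. *AGER* and *RAGE*, 2 panel names for a gene of alveolar type I cells, had mean Ct values of 16.06 to 18.07 in the 4 groups, so this lung marker was abundant in each of them. Expression was taken relative to the mean of the 2 housekeeping assays. These 2 assays did not shift alike between groups. From HBSS + vehicle to HBSS + LLC the first went from 14.09 to 15.35 cycles and the second from 22.5 to 20.56. Ranges over references given here cover 4 others, namely each housekeeping assay alone, the median of the 98 panel genes, and the median of the panel genes at 30 cycles or less in all groups.

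Relative to the housekeeping mean, *CCL-2* had its highest expression in HBSS + vehicle and its lowest in HBSS + LLC. Without cancers its mean Ct was 24.84 after HBSS and 27.75 after S100A8, and with LLC cancers 26.8 and 27.32. Both S100A8-treated groups lay between these extremes and within 0.02 cycles of each other. The 4 groups spanned 2.30 cycles, the widest span of the 4 chemokines with this reference. HBSS + vehicle was highest under each of the 4 other references. With the first housekeeping assay alone, however, S100A8 + vehicle was lowest and the span was 0.83 cycles, less than the 1.27 of *CCL-3* and the 1.17 of *CCL-4*. In whole lung, fewer cells expressing a gene and less RNA per cell cannot be told apart.

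*CCL-3* was highest in S100A8 + vehicle relative to the housekeeping mean. Lungs without cancers had a mean Ct of 23.48 after HBSS and 24.29 after S100A8, and lungs with LLC cancers 23.7 and 25.13. After subtraction of the housekeeping mean, which was 1.44 cycles later in S100A8 + vehicle than in HBSS + vehicle, S100A8 + vehicle came first, HBSS + vehicle second, and the 2 LLC groups last and 0.10 cycles apart. The span was 1.29 cycles. With the first housekeeping assay alone HBSS + vehicle was lowest instead, and with the second alone it was highest, 0.01 cycles from S100A8 + vehicle.

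*CCL-4* had the narrowest span with this reference, 0.73 cycles. Mean Ct was 24.54 after HBSS and 25.68 after S100A8 in lungs without cancers, against 24.63 and 25.96 in lungs with them. The order was that of *CCL-3*, except that both LLC groups had the same value. It held under none of the 4 other references. With the first housekeeping assay alone HBSS + LLC was highest and HBSS + vehicle lowest. With the second alone, the panel median or the median of genes at 30 cycles or less, HBSS + vehicle was highest.

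*CCL-5* was detected at 19.45 cycles after HBSS and at 20.84 after S100A8 in lungs without cancers, and at 20 and 21.22 cycles in lungs with LLC cancers. Relative to the housekeeping mean, the 2 groups without LLC cancers were 0.05 cycles apart, the 2 groups with LLC cancers were 0.11 cycles apart, and the whole span was 0.94 cycles. This pairing of groups did not hold with the first housekeeping assay alone, where log2 values against HBSS + vehicle were 0.69 with S100A8, 0.71 with LLC cancers and -0.04 with both, or with the second alone, where they were -0.59, -2.49 and -1.52. Ct values of different assays depend on their primers, so the 4 genes are not ranked against each other by level.

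**Figure D1:**
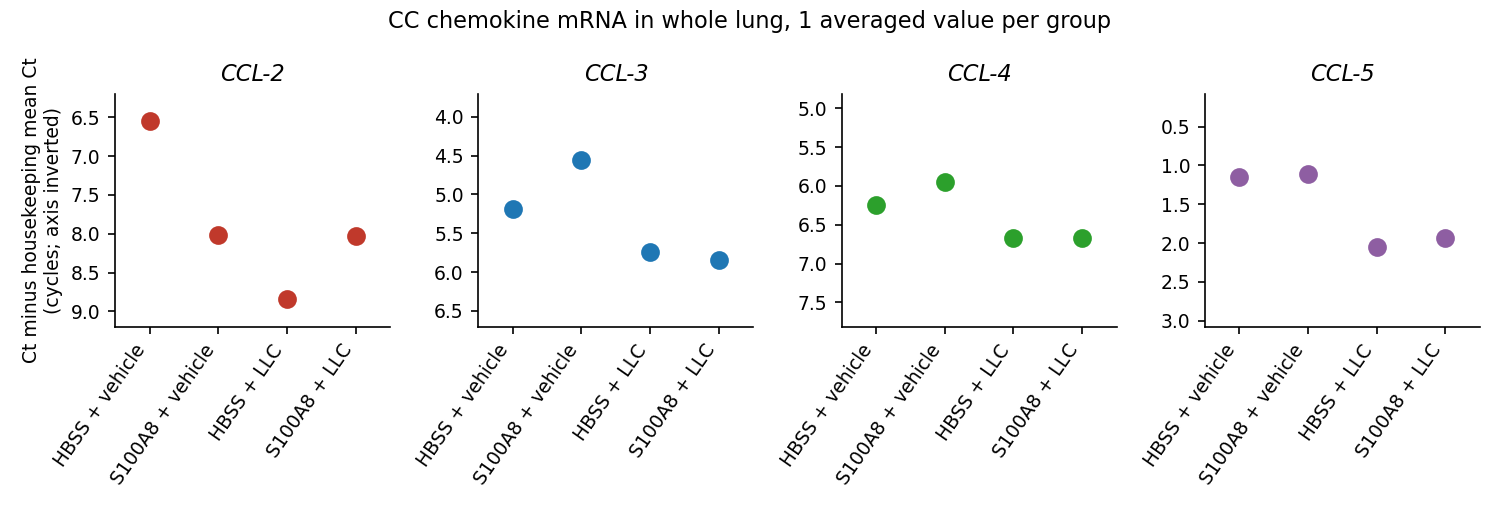
Mean Ct minus the mean Ct of both housekeeping assays (cycles, axis inverted so that higher expression is up) for each chemokine. Each point is the single averaged value of a group, all panels span 3 cycles, and no error bars can be drawn; *CCL-2* is highest in HBSS + vehicle and spans 2.30 cycles, and *CCL-4* spans 0.73 cycles.

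The effect of S100A8 in lungs without cancers was asked by comparing S100A8 + vehicle with HBSS + vehicle. *CCL-2* was 2.77-fold lower with S100A8, while *CCL-3* was 1.55-fold, *CCL-4* 1.23-fold and *CCL-5* 1.04-fold higher. *CCL-2* was the 1 of 4 chemokines more than 2-fold lower, against 17.5% of the 97 genes that could be compared. None was more than 2-fold higher, against 27.8%. The 4 log2 fold changes had a median of 0.175, and those of the panel genes 0.34. Over the 4 other references, *CCL-2* was lower each time, between 1.78-fold and 4.32-fold. The other 3 did not keep a direction. *CCL-5*, for example, ran from 1.51-fold lower to 1.61-fold higher.

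The effect of the cancers was asked by comparing HBSS + LLC with HBSS + vehicle. All 4 chemokines were lower in lungs with LLC cancers. *CCL-2* was 4.92-fold lower, *CCL-5* 1.85-fold, *CCL-3* 1.47-fold and *CCL-4* 1.35-fold. Only *CCL-2* of the 4 was past 2-fold, against 21.4% of the 98 genes. None was more than 2-fold higher, against 26.5%. The median log2 fold change was -0.725, against -0.185 in the panel. *CCL-2* ranked 7 from the lowest of 98 genes, tied with *S100A4* and with the tie counted at its higher number. This rank does not depend on the reference. The decrease of *CCL-2* lay between 1.62-fold and 14.9-fold over the other references. The other 3 turned with the reference, and with the first housekeeping assay alone *CCL-3* was 2.06-fold, *CCL-4* 2.25-fold and *CCL-5* 1.64-fold higher in HBSS + LLC.

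Cancers and S100A8 together were compared with neither in S100A8 + LLC against HBSS + vehicle. *CCL-2* was 2.81-fold lower, *CCL-5* 1.72-fold, *CCL-3* 1.58-fold and *CCL-4* 1.35-fold. Again 1 of 4 was more than 2-fold lower, against 18.4% of the panel, and none more than 2-fold higher, against 22.4%. The median log2 fold change was -0.72, against -0.22 in the panel. *CCL-2* was lower under each of the other references, between 1.68-fold and 4.69-fold, and so was *CCL-5*, between 1.03-fold and 2.87-fold. *CCL-3* and *CCL-4* were 1.06-fold and 1.24-fold higher with the first housekeeping assay alone. These 3 comparisons share the HBSS + vehicle value, so the lower *CCL-2* in all 3 rests on a single control value. Within the panel, *CCL-2* ranked 14 from the lowest of 97 genes in S100A8 + vehicle and 10 from the lowest of 98 in S100A8 + LLC.

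**Figure D2:**
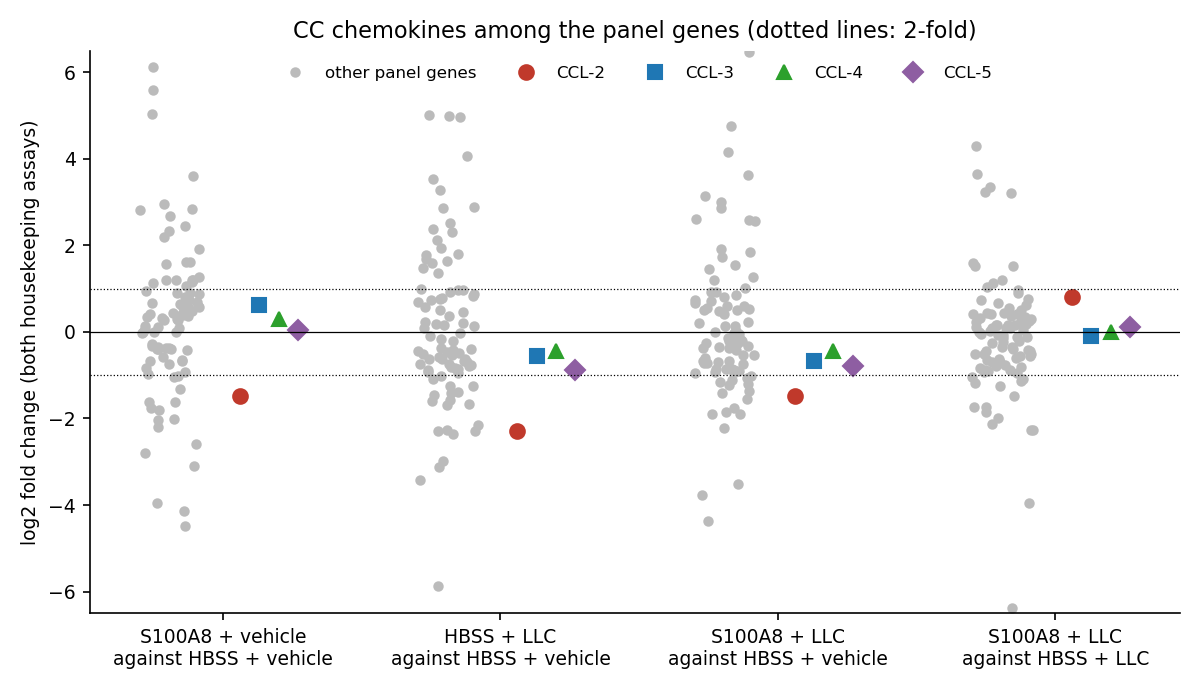
Log2 fold change (y axis, both housekeeping assays as reference) of the 4 chemokines (coloured symbols) and the other panel genes (grey) in 4 comparisons; dotted lines mark 2-fold. *CCL-2* lies below the lower dotted line in the 3 comparisons with HBSS + vehicle, and the other 3 chemokines lie between the lines in all 4 comparisons. From left to right, 4, 6, 4 and 0 genes lie beyond the axis and are not drawn.

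S100A8 treatment of lungs with LLC cancers was examined as S100A8 + LLC against HBSS + LLC. *CCL-2* was 1.75-fold higher with S100A8, *CCL-5* was 1.08-fold higher, *CCL-4* was equal and *CCL-3* was 1.07-fold lower. None of the 4 passed 2-fold, while 11.2% of the panel lay above that threshold on the higher side and 15.3% on the lower. *CCL-2* ranked 14 from the highest of 98 genes, and *CCL-5*, *CCL-4* and *CCL-3* ranked 41, 47 and 52. With the first housekeeping assay alone *CCL-2* was 1.04-fold lower, and with the second alone 3.18-fold higher. Each of the other 3 was lower under 2 of the 4 other references and higher under 2.

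The effect of the cancers in S100A8-treated lungs was read from S100A8 + LLC against S100A8 + vehicle. Here *CCL-3* was 2.45-fold, *CCL-5* 1.78-fold and *CCL-4* 1.66-fold lower with LLC cancers, and *CCL-2* was 1.01-fold lower. The shifts of the 2 housekeeping assays differed least in this comparison. The decreases of *CCL-3* (1.75-fold to 2.75-fold), *CCL-5* (1.27-fold to 2-fold) and *CCL-4* (1.19-fold to 1.87-fold) held under each of the 4 other references. *CCL-3* was the 1 of 4 more than 2-fold lower, against 29.6% of the panel, and none was more than 2-fold higher, against 12.2%. The median log2 fold change was -0.78, against -0.435 in the panel. In the same comparison and relative to the housekeeping mean, 4 of 5 assays of whole lung markers were more than 2-fold lower. They were *RAGE* (2.17-fold) and *AGER* (3.29-fold), which name the same gene, *MUC1* (2.73-fold) and *CDH1* (2.66-fold), and *CAV1* was 1.93-fold higher. Of 4 leukocyte markers 1 was more than 2-fold lower, *S100A9*, at 3.97-fold. With the median of genes at 30 cycles or less, all genes of this comparison shift up by 0.485 on the log2 scale. Marker counts under other references were not computed. The part of these markers in the chemokine values was not tested.

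**Figure D3:**
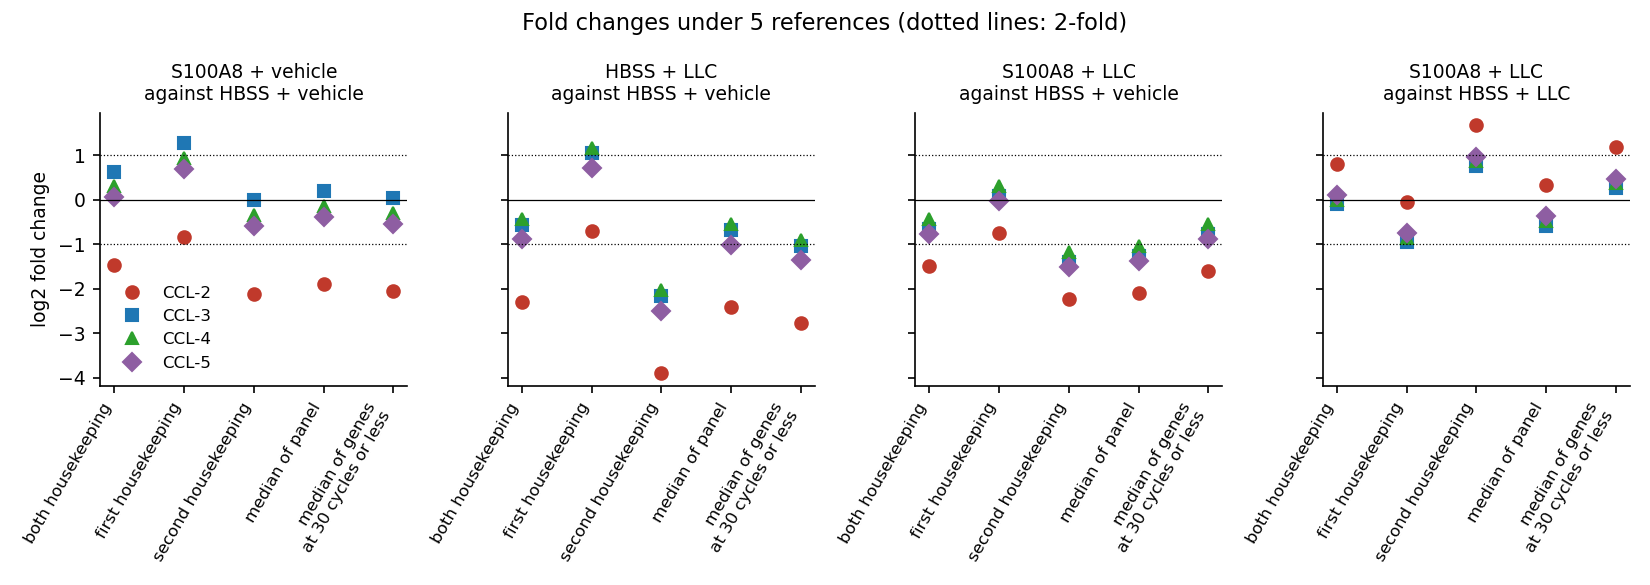
Log2 fold change (y axis) of each chemokine in 4 comparisons (panels) under 5 references (x axis), with dotted lines at 2-fold. *CCL-2* stays below 0 in the first 3 panels, between -3.90 and -0.70 over the 4 other references, while *CCL-3* and *CCL-4* cross 0 in each panel.

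The chemokines were also set against each other. The difference in Ct between 2 genes of a group does not involve the housekeeping assays, and its change between groups is the same under every reference. In HBSS + vehicle, *CCL-2* was detected 1.36 cycles after *CCL-3*, and this gap widened to 3.46 cycles with S100A8, 3.10 with LLC cancers and 2.19 with both. The gap to *CCL-4* was 0.30, 2.07, 2.17 and 1.36 cycles in the same order. The gap to *CCL-5* was 5.39, 6.91, 6.80 and 6.10 cycles. *CCL-2* was thus lower relative to each of the other 3 in every group given S100A8, LLC cells or both. Against their mean, the shift was 1.80 cycles with S100A8, 1.67 with LLC cancers and 0.867 with both, so that S100A8 + LLC lay nearest to HBSS + vehicle. All of these shifts share the single HBSS + vehicle value of *CCL-2*.

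*CCL-3*, *CCL-4* and *CCL-5* kept closer to each other. Over the 4 groups, the gap between *CCL-4* and *CCL-5* varied by 0.46 cycles, that between *CCL-3* and *CCL-4* by 0.56 and that between *CCL-3* and *CCL-5* by 0.58. The median of the 4753 pairs of panel genes was 2.87 cycles, and 0.947%, 1.89% and 2.06% of all pairs varied less than these 3. The gaps of *CCL-2* to *CCL-3*, *CCL-4* and *CCL-5* varied by 2.10, 1.87 and 1.52 cycles, and 33.6%, 28.3% and 19.3% of pairs varied less. Each share rests on 4 averages per gene and is a description, not a test. The pairs also include genes past the mark of low expression. *SOD1*, for example, was at 38 cycles in HBSS + vehicle and at 19.79 in S100A8 + LLC. Only 72 panel genes were at 30 cycles or less in all groups, as the 4 chemokines were. Shares among pairs of these 72 were not computed, so the place of the chemokine gaps among well detected genes was not tested.

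**Figure D4:**
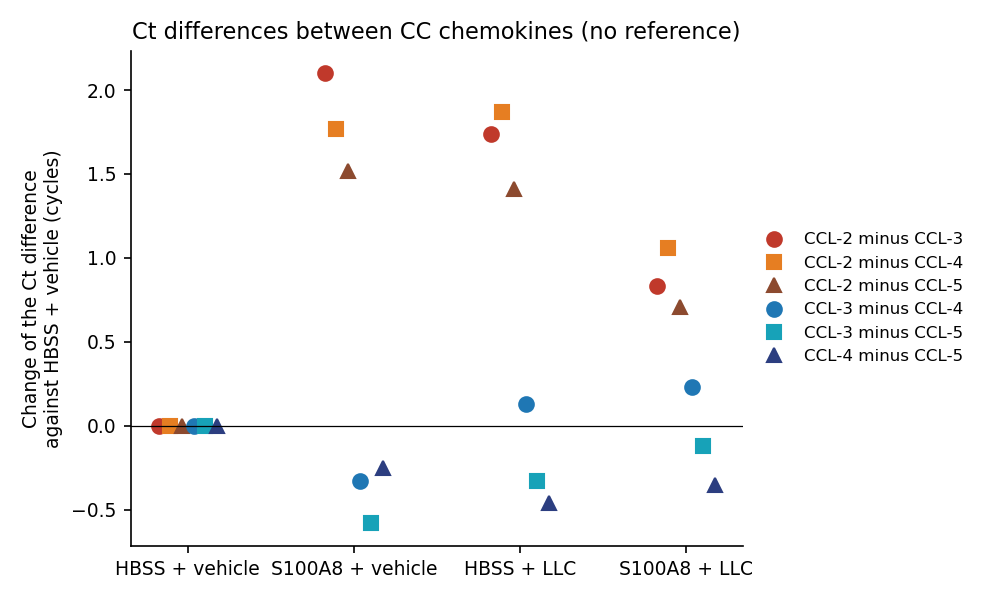
Change of the Ct difference between 2 chemokines against HBSS + vehicle (y axis, cycles), by group; each point is 1 pair of genes, and HBSS + vehicle is 0 by definition. The 3 pairs with *CCL-2* lie between 0.71 and 2.10 cycles in the other groups, and the 3 pairs without it between -0.58 and 0.23 cycles.

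The S100A8 effect without and with LLC cancers was compared for each gene. On the log2 scale *CCL-2* had an effect of -1.47 without and 0.81 with cancers, a difference of 2.28, which ranked 10 from the highest of 97 genes. The difference was -0.73 for *CCL-3*, -0.30 for *CCL-4* and 0.06 for *CCL-5*, and the median of the panel was -0.52, with 21 genes above 1 and 37 below -1. With the first housekeeping assay alone all 4 shifted down together, to 0.78 for *CCL-2* and to -2.23, -1.80 and -1.44 for the other 3, so that their signed order held and *CCL-2* became the smallest in size. Of the other chemokines, *CCL-11*, an eosinophil attractant, had a difference of 1.46, and *CXCL-12*, the ligand of *CXCR4*, one of -2.82. None of these differences could be tested.

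**Figure D5:**
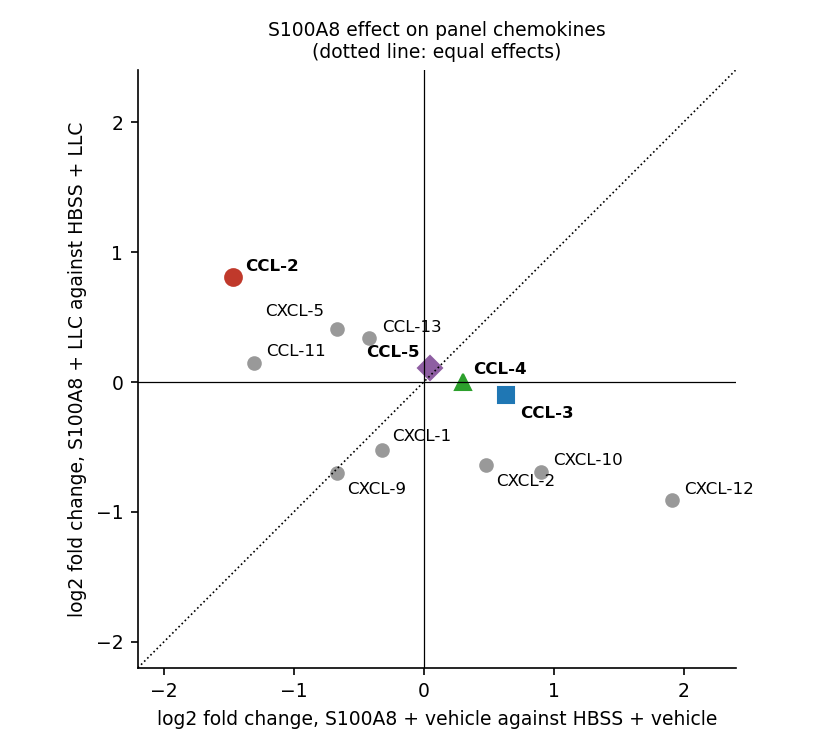
Log2 fold change by S100A8 without LLC cancers (x axis) and with them (y axis) for the 12 panel chemokines; coloured symbols are *CCL-2* to *CCL-5*, grey points the other 8, and the dotted line marks equal effects. *CCL-2* lies at -1.47 and 0.81, and *CCL-5* lies at 0.05 and 0.11, near the line.

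The panel holds 8 other chemokines. For these and the gene lists that follow, fold changes are given with the mean of both housekeeping assays only. Another reference shifts all genes of a comparison alike, so directions and calls can change. With the first housekeeping assay alone, the shift in HBSS + LLC against HBSS + vehicle is 1.6 on the log2 scale. Against HBSS + vehicle, 1 of the 8 was more than 2-fold lower with S100A8, against 17.5% of the panel genes compared. With LLC cancers it was 3, against 21.4%, and with both 4, against 18.4%, the order kept in what follows. More than 2-fold higher were 1, 1 and 0, against 27.8%, 26.5% and 22.4%. Median log2 fold changes of the 8 were -0.37, -0.80 and -0.99. The neutrophil attractant *CXCL-5* was closest to *CCL-2* among them, at 1.59-fold, 4.47-fold and 3.36-fold lower. *CXCL-9* and *CXCL-10*, interferon-induced attractants of T cells, stayed within 2-fold, at 1.59-fold lower and 1.87-fold higher in S100A8 + vehicle and at 1.88-fold and 1.53-fold lower in S100A8 + LLC. *CXCL-12* was 3.76-fold, 3.41-fold and 1.82-fold higher. The receptor *CXCR4* had log2 fold changes of -1.01, -1.26 and -0.85. *CCL-13* was 1.34-fold, 2.66-fold and 2.10-fold lower, but no mouse gene of this name or synonym was found in the annotation, and which transcript the assay reads is not known here.

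Among 6 genes for inducers of these chemokines and their signalling, 1 was more than 2-fold lower with S100A8, 1 with LLC cancers and 3 with both. The panel shares were 17.5%, 21.4% and 18.4%. On the higher side it was 1 in each group, against 27.8%, 26.5% and 22.4% of the panel. *TNF-α*, a cytokine known to induce these chemokines, was 1.23-fold higher in S100A8 + vehicle, and 2.75-fold and 2.58-fold lower in HBSS + LLC and S100A8 + LLC. *IL-1β*, an inflammatory cytokine, was 1.57-fold, 1.82-fold and 3.71-fold lower. *IL-6*, another inflammatory cytokine, was the 1 gene more than 2-fold lower with S100A8, at 3.07-fold, and was 1.55-fold and 2.35-fold lower in the LLC groups. *IFN-γ*, the macrophage-activating cytokine of T and NK cells, was the 1 gene of this list more than 2-fold higher, at 5.06-fold, 31.8-fold and 7.31-fold. Without cancers it lay past the mark of low expression, at 31.24 cycles after HBSS and 30.34 after S100A8, and with LLC cancers at 25.91 and 29.36 cycles. *NF-κB*, a transcription factor of inflammatory genes, was 1.01-fold higher in S100A8 + vehicle, and 1.59-fold and 1.89-fold lower in the LLC groups.

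Of 6 genes of monocytes, macrophages and lymphocytes, 1 was more than 2-fold lower in each of the 3 groups, and 1 was more than 2-fold higher with S100A8, 0 with LLC cancers and 1 with both. The median log2 fold changes were 0.52, -0.225 and -0.26. Of the panel, 17.5%, 21.4% and 18.4% were more than 2-fold lower, and 27.8%, 26.5% and 22.4% more than 2-fold higher. *LCK*, the kinase of the T cell receptor complex, was 3.10-fold, 5.17-fold and 3.63-fold lower. *M-CSF*, the growth factor of the monocyte lineage, was 2.31-fold higher in S100A8 + vehicle and within 1.03-fold in both LLC groups. *IL-2*, a T cell growth factor, was 3.76-fold higher in S100A8 + LLC and 1.83-fold higher in HBSS + LLC, but close to the cut off, with mean Ct values of 36.89 in HBSS + vehicle, 35.68 and 35.97 in the LLC groups, and 38 in S100A8 + vehicle. *GM-CSF*, a myeloid growth factor, was 1.92-fold higher, 1.42-fold lower and 1.92-fold lower, and *MIF* was 1.29-fold higher, 1.34-fold lower and 1.21-fold lower. *NOX2*, the oxidase of phagocytes, was 1.59-fold and 1.62-fold higher in S100A8 + vehicle and HBSS + LLC and 1.19-fold lower in S100A8 + LLC. Among 4 leukocyte markers (*LCK*, *NOX2*, *S100A8* and *S100A9*, the last 2 of neutrophils and monocytes), *LCK* was the only one more than 2-fold lower in any of the 3 comparisons. *S100A8* and *S100A9* were 2.30-fold and 2.08-fold higher in S100A8 + vehicle. Median log2 fold changes of the 4 markers were 0.865, -0.115 and -0.59, and all had a mean Ct under 25 cycles in each group. Tissue markers differed between groups as well. Of the basal epithelium markers, *KRT5* was 8.57-fold, 8.63-fold and 4.66-fold lower, and *KRT14* was 1.01-fold higher, 3.20-fold lower and 6.11-fold higher. *CDH1*, the epithelial cadherin, was 32.7-fold, 16.8-fold and 12.3-fold higher, and *CAV1*, of endothelium and alveolar type I cells, was 1.28-fold lower, 2.77-fold higher and 1.51-fold higher. *RAGE*, *AGER* and *MUC1* stayed within 2-fold of HBSS + vehicle. What part leukocytes or other cells have in the chemokine values was not tested.

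The panel genes with the most similar pattern were found by the root mean square difference in log2 fold change over the 3 groups compared with HBSS + vehicle. *LCK* was nearest to *CCL-2*, with a difference of 0.236, followed by *CXCL-5* at 0.492 and *IL-23* at 0.595, of which *IL-23* was above 30 cycles in each group. *MUC1*, an epithelial mucin, was nearest to *CCL-3* at 0.126, before *TIMP2* at 0.188 and *AGER* at 0.205. *MIF*, a macrophage cytokine, was nearest to *CCL-4* at 0.101, before *p53* at 0.188 and *SKY* at 0.231. *NF-κB* was nearest to *CCL-5* at 0.152, before *CDH13* at 0.297 and *STAT3* at 0.309. By this measure, none of the 4 chemokines was among the 3 nearest genes of another. The likeness rests on 3 differences that share a control, and the housekeeping reference cancels in it.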

How the data were processed

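Total lung RNA (1.5 µg) was reverse-transcribed and 98 genes and 2 housekeeping genes were amplified with SYBR Green. The authors deposited mean Ct values per group and numbered assay, not normalized. They also deposited fold changes, a ratio against HBSS + vehicle. The latter served only to identify assays and groups, by matching them with the values that the study's supplementary table prints by gene and group. All 98 genes matched exactly 1 assay within 0.1%, and the 2 assays left over were taken as the housekeeping genes β-actin and β2M, in unknown order. From the mean Ct values alone, each printed value followed with 1 constant per group to within 0.00951 cycles. No deposited fold change is reported.

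The mean Ct of both housekeeping assays was subtracted from each Ct, and groups were compared assuming a doubling per cycle. A gene was called when more than 2-fold different. Genes at 38 cycles in both groups were left out. Depth has no counterpart in Ct values, and their precision cannot be computed here because mice were averaged.

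Members and gene lists were chosen with earlier results of these data known. Named were the members, the other chemokines and *CXCR4*, inducers, genes of monocytes and lymphocytes, tissue markers, and the 3 panel genes most like each member. Alternatives were 4 references, no reference, an amplification of 1.9-fold per cycle, thresholds of 1.5-fold and 3-fold, and another measure of likeness. Functions were tested on simulated Ct values. Python 3.11.15, numpy 2.4.6 and matplotlib 3.10.9 were used.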

Additional observations from a re-analysis of the deposited data

Results flagged for a closer look

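In lungs without LLC cancers *CCL-2* was lower with S100A8, and in lungs with LLC cancers it was higher. The difference between both effects was 2.28 on the log2 scale. *CCL-3* moved the other way, higher without cancers and slightly lower with them, with a difference of -0.73. Over the panel the median difference was -0.52 and the median size 1.35, and *CCL-3* ranked 53 from the highest of 97 genes, near the middle, while *CCL-2* ranked 10. These differences were not tested, since each group has 1 averaged value. With the first housekeeping assay alone, *CCL-2* was lower with S100A8 in both settings, and with the second alone or with the median of genes at 30 cycles or less the difference for *CCL-3* was above 0.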

How the results depend on the processing

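No paired analysis was possible because each group has 1 averaged value, and no mouse could be left out. Of 120 recomputed fold changes of the 4 chemokines, 66 kept their direction and their side of the threshold, 19 kept their direction and passed it, and 5 lost it. Of the other 30, 20 changed sign within 2-fold and 5 changed sign and passed 2-fold the other way. The remaining 5 belong to *CCL-4* in S100A8 + LLC against HBSS + LLC, which is 0 as reported, and 1 of them passed 2-fold. No called value turned. The amplification of 1.9-fold per cycle changed no call. *CCL-2* stayed lower than in HBSS + vehicle in all 3 groups under every alternative.

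Median log2 fold changes of the 4 genes moved as follows. In S100A8 + vehicle against HBSS + vehicle each housekeeping assay on its own gave 0.815 (first) or -0.465 (second). The median was -0.26 with the panel median, -0.415 with the median of genes at 30 cycles or less and -1.265 with no reference. In HBSS + LLC it was 0.875 with the first and -2.325 with the second housekeeping assay, and -1.195 with the genes at 30 cycles or less. In S100A8 + LLC it was 0.02 with the first and -1.46 with the second, -1.325 with the panel median and -1.71 with no reference. In S100A8 + LLC against HBSS + LLC it was -0.805 with the first, 0.915 with the second, -0.43 with the panel median, 0.42 with the genes at 30 cycles or less and -1.275 with no reference.

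The number of the 4 genes past the threshold changed too. A reference shifts all panel genes of a comparison alike, by -1.6 on the log2 scale with the second housekeeping assay in HBSS + LLC. Panel shares past the threshold were not computed at these settings. The counts below therefore describe the settings and do not set the 4 genes apart from the panel. In S100A8 + vehicle 1 was higher with the first housekeeping assay and at 1.5-fold, while 0 were lower with the first and at 3-fold, and 3 with no reference. In HBSS + LLC 2 were higher and 0 lower with the first, and 4 were lower with the second, 2 with the panel median, 3 with the genes at 30 cycles or less and 2 at 1.5-fold. In S100A8 + LLC 0 were lower with the first and at 3-fold, 3 at 1.5-fold, and 4 with the second, the panel median or no reference. Against HBSS + LLC 1 was higher with the second, with the genes at 30 cycles or less and at 1.5-fold, and 3 were lower with no reference. Against S100A8 + vehicle 0 were lower with the genes at 30 cycles or less, with no reference and at 3-fold, and 3 at 1.5-fold.

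The difference between both S100A8 effects was 0.78 for *CCL-2* with the first housekeeping assay, then the smallest in size of the 4, and 3.78 with the second. With the first, the second and the genes at 30 cycles or less, it was -2.23, 0.77 and 0.225 for *CCL-3*, -1.8, 1.2 and 0.655 for *CCL-4*, and -1.44, 1.56 and 1.015 for *CCL-5*. With the largest absolute difference as the measure of likeness, the 3 nearest genes were the same for *CCL-2* and *CCL-3*. *MST1* replaced *SKY* for *CCL-4*, tied with *CCL-3* at 0.33, and *SKY* replaced *STAT3* for *CCL-5*. References shift all genes of a comparison alike, and why the housekeeping assays differed was not tested.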
